A study of Homo sapiens with 4 samples.

Results

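The 10 genes described here encode intermediate filament proteins, namely the keratins KRT7, KRT8, KRT18, KRT19, KRT20 and KRT23, nestin (NES), vimentin (VIM) and the lamins LMNA and LMNB1. They were chosen by their symbol in the deposited tables, which hold 20323 genes. Each of the 10 symbols had 1 row, so the summed count that would have chosen among several rows decided nothing. The symbols themselves were picked with earlier OE against NC results of these libraries known, so every difference below is a description. Of the 10 genes, 9 passed the filter on low counts, which left 12560 genes for testing, and KRT23 did not.

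The 4 libraries hold ribosome footprints of HCT-8 (HCT8), a human colorectal cancer line, here a 5-fluorouracil (5-FU) resistant form. The OE group received plasmids that overexpress METTL14, a subunit of the methyltransferase that places N6-methyladenosine on messages, and the NC group received negative control plasmids, with 2 libraries in each group. All cells were 5-FU-resistant and were exposed to cycloheximide at 100 ug/mL, a drug that freezes elongating ribosomes in place. The promoter of the plasmids and the number of resistant clones were not given in the sources used here. The comparison of OE with NC asks which messages carried more or fewer ribosome footprints when METTL14 was overexpressed.

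Intermediate filaments are rope-like polymers of proteins that share a central coiled-coil rod. Keratins assemble only as heteropolymers of a type I chain (here KRT18, KRT19, KRT20 and KRT23) with a type II chain (here KRT7 and KRT8), and KRT8 with KRT18 forms the basic network of simple epithelia such as the gut lining. Vimentin builds homopolymers, chiefly in mesenchymal cells and in many cultured lines, and nestin, best known from neural progenitors, joins filaments of vimentin. Lamins form the mesh under the inner nuclear membrane: LMNA encodes lamins A and C, which stiffen the nucleus, and LMNB1 encodes the membrane-bound lamin B1.

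The deposited estimated counts summed to 7742274 and 24392875 in OE replicates 1 and 2, against 21846389 and 18707758 in NC replicates 1 and 2. OE replicate 1 stood apart from the other libraries: across genes the log2 values of the OE pair had a Pearson correlation of 0.863 and those of the NC pair 0.983, where genes are not independent replicates. Its difference from the NC mean also followed the level of a gene. The median difference was 1.17 on the log2 scale in the decile of genes with the lowest NC level and -1.08 in the decile with the highest, while in OE replicate 2 these medians were -0.09 and -0.08. METTL14 itself had 448 and 91.2 CPM (footprint counts scaled to library size) in OE replicates 1 and 2, against 44.5 and 47.6 CPM in NC, with a log2 fold change of 2.55 (SE 0.81) that did not pass the threshold of 0.05 (BH-adjusted p = 0.734, edgeR's quasi-likelihood test). The DESeq2 Wald test called it, at 2.54 (BH-adjusted p = 0.0495, in a range of 0.0495 to 0.837 over the alternative fits with all 4 libraries). If OE replicate 1 was left out its fold change was 0.99, and if OE replicate 2 was left out 3.24, with adjusted p of 4.05e-06 and 1.40e-18 in edgeR fits that rest on the spread of the NC libraries alone.

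Nestin, vimentin and LMNA had fewer footprints in each OE library than in either NC library, the keratins KRT8 and KRT18 and the lamin LMNB1 lay on opposite sides of NC in the 2 OE libraries, and the scarce keratin KRT7 had more footprints in both. None of the 9 genes tested passed edgeR's quasi-likelihood test after Benjamini-Hochberg (BH) adjustment, called the edgeR test below (0 of 9; 0% of the 12560 genes tested passed), and the DESeq2 Wald test called 0 of the 9, against 0.199% of all genes. At an unadjusted p below 0.05 there were 2 of the 9 (NES and VIM), against 5.5% of all genes. Counted by libraries, 4 of the 9 (KRT19, NES, VIM and LMNA) were lower in both OE libraries, against 20.4% of all genes, and 1 (KRT7) was higher in both, against 19.9% of all genes. Among the genes in the decile with the highest NC level, which includes KRT8, KRT18, KRT19, LMNA and LMNB1, 45% were lower in both OE libraries. The median log2 fold change of the 9 genes was -0.44, and that of all genes tested 0.09. The median of the genes described turned to 0.18 without OE replicate 1 and was -1.60 without OE replicate 2 and -0.78 with the replicate block. Over all genes these medians were -0.01, 0.02 and 0.01. The fit without OE replicate 2 also held KRT23, so its median is over 10 genes. Footprint counts depend on how much message a cell holds as well as on how densely ribosomes load it, and no total RNA was analysed here. In such bulk samples fewer cells that express a gene and less RNA per cell cannot be told apart.

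**Figure D1:**
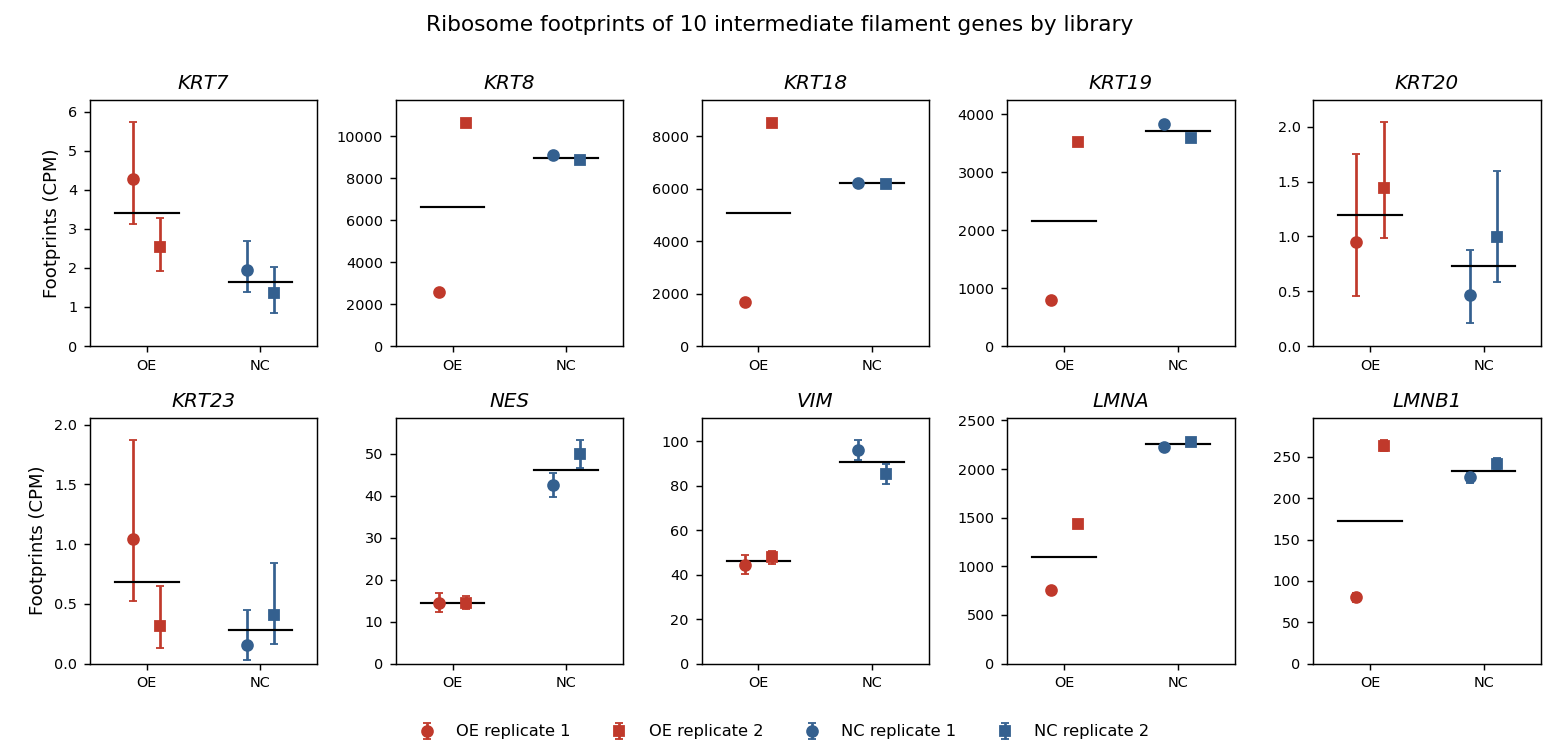
Footprints of the 10 genes in CPM (y axis, from 0, a scale of its own for each gene) in the OE and NC libraries (x axis); points are libraries, bars the exact Poisson 95% interval of counting and black lines the group means (n = 2 each). NES and VIM sit close together within OE and below both NC libraries, whereas KRT8, KRT18 and LMNB1 have OE replicate 1 below and OE replicate 2 above both NC libraries.

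KRT8, the type II partner of KRT18, had 2593 and 10630 CPM in OE replicates 1 and 2, against 9109 and 8879 CPM in NC replicates 1 and 2. Its means were 6612 ± 5683 CPM in OE and 8994 ± 163 CPM in NC (SD, n = 2 each). KRT18, the type I partner, had 1690 and 8493 CPM in OE replicates 1 and 2, against 6233 and 6174 CPM in NC replicates 1 and 2. For both genes OE replicate 1 was the lowest library and OE replicate 2 the highest, and the NC libraries were close together. The log2 fold changes were -0.44 (SE 0.99) for KRT8 and -0.29 (SE 1.00) for KRT18, each smaller than its error (adjusted p = 0.905 and 0.940 by the edgeR test). Set against the NC mean, KRT8 lay at -1.79 in OE replicate 1 and 0.24 in OE replicate 2 on the log2 scale, and KRT18 at -1.88 and 0.45. Without OE replicate 1 the fold change of KRT8 turned to 0.24 (adjusted p = 0.143) and that of KRT18 to 0.46 (adjusted p = 0.00477), where edgeR's test rests on the spread of the NC libraries alone; without OE replicate 2 they were -1.83 (adjusted p = 2.19e-13) and -1.92 (adjusted p = 1.70e-13). Over the alternative fits with all 4 libraries the adjusted p lay between 0.849 and 1 for KRT8 and between 0.928 and 1 for KRT18.

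KRT19, a type I keratin of ductal and gut epithelium that lacks the tail domain of other keratins, had 789.8 and 3524 CPM in OE replicates 1 and 2, against 3831 and 3580 CPM in NC replicates 1 and 2. Its count as lower in both OE libraries rests on a narrow margin, since OE replicate 2 lay at -0.07 from the NC mean on the log2 scale, while the NC libraries differed by 0.10. The log2 fold change was -0.78 (SE 0.91; BH-adjusted p = 0.821, edgeR), or -0.07 if OE replicate 1 was left out and -2.27 if OE replicate 2 was left out. Together KRT8, KRT18 and KRT19 took 0.689% and 2.05% of all footprint counts in OE replicates 1 and 2, against 1.71% and 1.70% in NC. In OE replicate 1 these 3 keratins lay further below NC (-1.79 to -2.23) than the median gene in the same decile of NC level (-1.08). RefSeq lists 52 pseudogenes named after KRT8, 68 after KRT18 and 5 after KRT19, none of which has a row in the files (0). The counts of these 3 genes held fractions in all 4 libraries, as did those of KRT7, VIM, LMNA and LMNB1. How reads shared with such copies were counted is not given in the sources used here.

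The remaining keratins were scarce. KRT7, a type II keratin of ductal epithelia that most colorectal tumours lack, had 4.28 CPM (95% Poisson interval 3.12 to 5.73) and 2.53 CPM (1.91 to 3.29) in OE replicates 1 and 2, against 1.96 CPM (1.38 to 2.68) and 1.35 CPM (0.854 to 2.02) in NC. Both OE libraries lay above both NC libraries, with overlapping counting intervals for OE replicate 2 and both NC libraries. The log2 fold change was 1.03 (SE 0.63; BH-adjusted p = 0.734, edgeR), and over the alternative fits with all 4 libraries the adjusted p lay between 0.605 and 1. It was 0.61 without OE replicate 1 (adjusted p = 0.420) and 1.32 without OE replicate 2 (adjusted p = 0.0384), where edgeR's test rests on the spread of the NC libraries alone. In OE replicate 1 the gene lay 1.34 above the NC mean on the log2 scale, near the median of 1.17 for all genes in its decile of NC level.

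KRT20, a type I keratin of differentiated enterocytes and goblet cells, had 0.951 and 1.45 CPM in OE replicates 1 and 2, from 10 and 32 footprints, against 0.463 and 0.996 CPM in NC, from 9 and 17 footprints. The groups overlapped, and the log2 fold change of 0.73 (SE 0.80) was within its error. KRT23, a type I keratin whose level varies among colorectal tumours, had 11 and 7 footprints in OE replicates 1 and 2, against 3 and 7 in NC, or 1.05 and 0.316 CPM against 0.154 and 0.410 CPM. At this depth no difference was detected for KRT20, and KRT23, whose groups also overlapped, was not tested. Over all 56 keratin genes of the files, 15 passed the filter on low counts and 20 had no footprint in any library.

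NES had the smallest unadjusted p of the 10 genes. It had 14.5 and 14.5 CPM in OE replicates 1 and 2, from 152 and 321 footprints, against 42.5 and 49.9 CPM in NC, from 825 and 851 footprints. The OE libraries agreed within counting error, and their 95% Poisson intervals (12.3 to 17.0 and 13.0 to 16.2 CPM) lay below those of NC (39.6 to 45.5 and 46.6 to 53.3 CPM). Means were 14.5 ± 0.0301 CPM in OE and 46.2 ± 5.23 CPM in NC (SD, n = 2 each), a log2 fold change of -1.67 (SE 0.29). In the edgeR test the unadjusted p was 0.00216 and the BH-adjusted p 0.734, so this difference missed the threshold over all genes. Fits that left out a single library gave fold changes of -1.80 to -1.59, and DESeq2 gave -1.67 in its Wald test (BH-adjusted p = 0.140, in a range of 0.140 to 0.837 over the alternative fits with all 4 libraries). All 4 counts of NES were whole numbers, and NES lay at -1.66 from the NC mean in each OE library, where the median gene of its decile lay at -0.13 in OE replicate 1 and 0.01 in OE replicate 2.

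VIM had 44.4 and 47.8 CPM in OE replicates 1 and 2, against 96.0 and 85.1 CPM in NC. The groups did not overlap, and the means were 46.1 ± 2.39 CPM in OE and 90.6 ± 7.72 CPM in NC (SD, n = 2 each). The log2 fold change was -0.97 (SE 0.30), where edgeR gave an unadjusted p of 0.0227 and a BH-adjusted p of 0.734. Fits that left out a single library gave -1.09 to -0.90. Scaled by library totals alone, the fold changes of NES and VIM were -1.35 and -0.65, in a fit whose median over all genes was 0.40 in place of 0.09. Against its decile of NC level, with medians of -0.65 and -0.06, VIM lay at -1.02 and -0.92 in OE replicates 1 and 2.

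LMNA, the A-type lamin, had 752.4 and 1437 CPM in OE replicates 1 and 2, against 2231 and 2276 CPM in NC. Both OE libraries were lower, though they differed from each other more than the NC libraries did, with means of 1095 ± 484 CPM in OE and 2254 ± 32.4 CPM in NC (SD, n = 2 each). The log2 fold change was -1.04 (SE 0.64; BH-adjusted p = 0.734, edgeR), or -0.65 without OE replicate 1 and -1.62 without OE replicate 2. LMNB1, the B-type lamin, had 80.3 and 263.5 CPM in OE replicates 1 and 2, against 225.1 and 241.2 CPM in NC. OE replicate 1 was the lowest library and OE replicate 2 the highest, as for KRT8 and KRT18, and the log2 fold change was -0.44 (SE 0.63), which turned to 0.18 without OE replicate 1. This order, OE replicate 1 below and OE replicate 2 above both NC libraries, was found for 3 of the 9 genes, against 19.8% of all genes tested and 39.6% of those in the decile with the highest NC level.

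**Figure D2:**
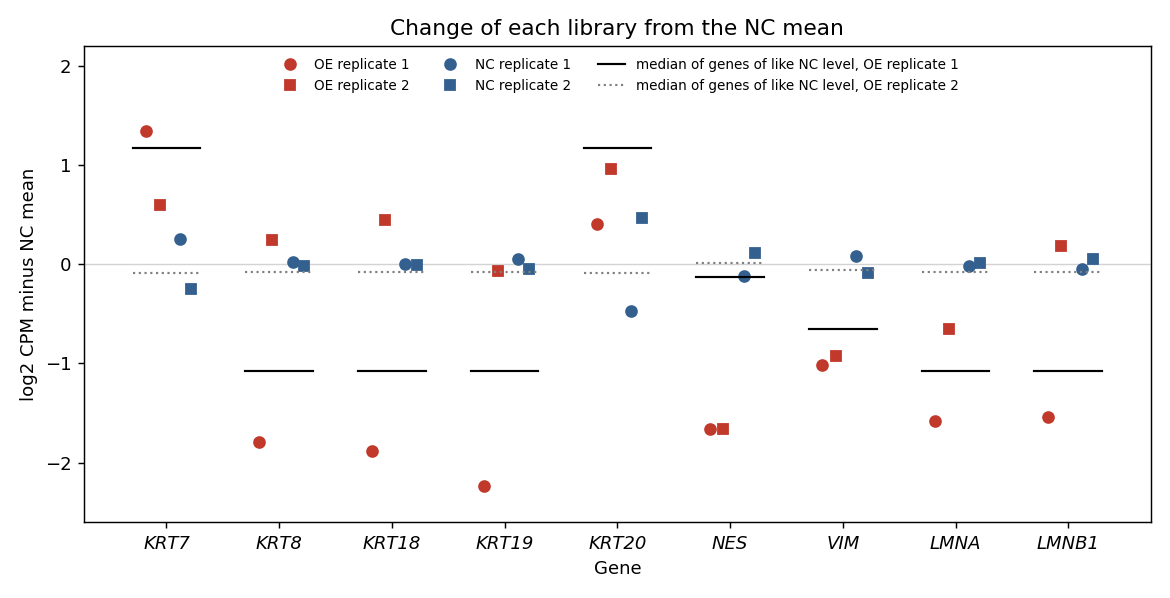
Difference of each library from the NC mean in log2 CPM (y axis) for the 9 genes tested (x axis); red points are OE and blue points NC libraries, and lines give the median of all genes in the same decile of NC level in OE replicate 1 (black) and OE replicate 2 (dotted grey). NES at -1.66 and -1.66 has both OE points far below both lines, while KRT8, KRT18, KRT19 and LMNB1 have widely separated OE points.

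Ratios between genes within a library do not depend on the scaling between libraries, and only their change across libraries is read here, since no transcript lengths were used. The ratio of KRT8 to KRT18 footprints was 1.53 and 1.25 in OE replicates 1 and 2, against 1.46 and 1.44 in NC. The groups overlapped, and the ratio differed more between the OE libraries than between the NC libraries. It moved far less than the levels, since OE replicate 2 had 4.10 times the CPM of OE replicate 1 for KRT8 and 5.03 times for KRT18. Summed over the keratins described, type II footprints over type I footprints were 1.05 and 0.885 in OE replicates 1 and 2, against 0.905 and 0.910 in NC, with overlapping groups.

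Within the type I keratins the balance between KRT18 and KRT19 differed. The ratio of KRT18 to KRT19 was 2.14 and 2.41 in OE replicates 1 and 2, against 1.63 and 1.72 in NC, a log2 difference of 0.44 with both OE libraries above both NC libraries. The ratio of NES to VIM was 0.325 and 0.303 in OE, against 0.442 and 0.586 in NC, a log2 difference of -0.70 with both OE libraries below. The ratio of LMNA to LMNB1 was 9.37 and 5.45 in OE replicates 1 and 2, against 9.91 and 9.44 in NC. Both were below NC, with OE replicate 1 close to it. For these 3 ratios the two-sided exact permutation test over libraries gave p = 0.333, the smallest value that 2 libraries against 2 allow, so the test cannot pass 0.05. VIM over KRT8 was 0.0171 and 0.00450 in OE replicates 1 and 2, on either side of 0.0105 and 0.00959 in NC.

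**Figure D3:**
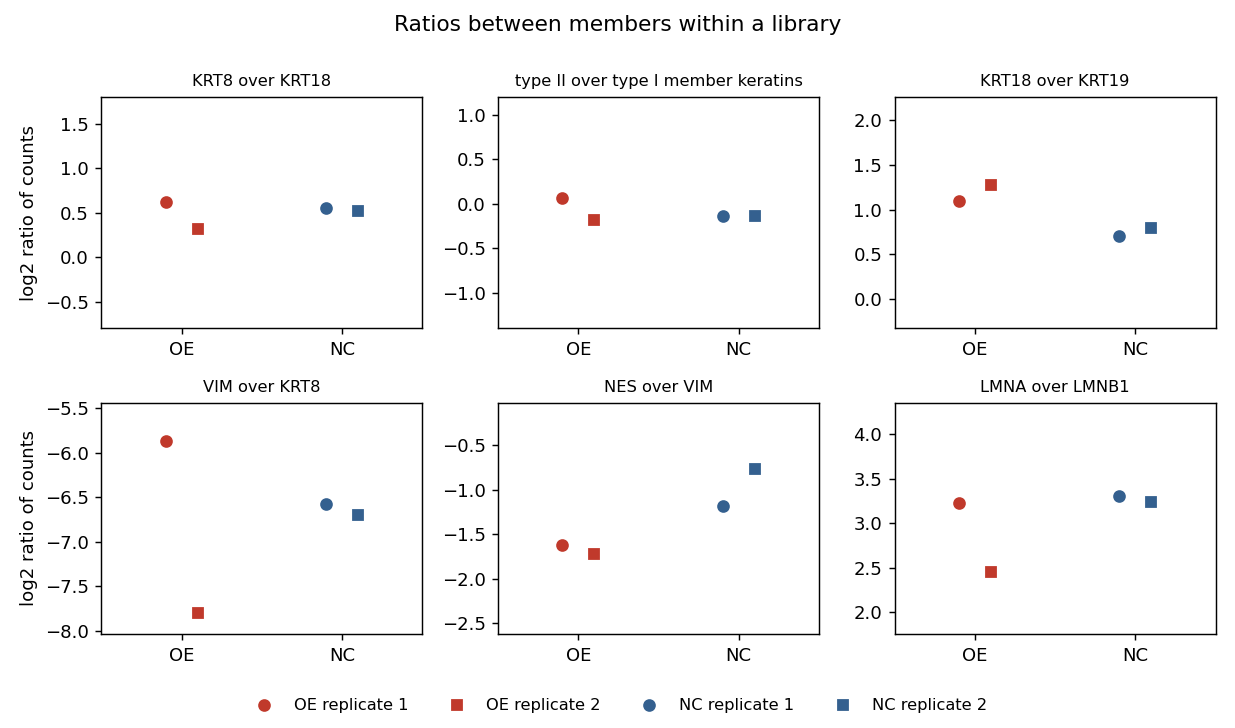
Log2 ratio of footprint counts of 2 genes or gene groups within each library (y axis, the same span in every panel) in OE and NC (x axis); points are libraries. KRT18 over KRT19 lies higher in both OE libraries and NES over VIM lower in both, whereas KRT8 over KRT18, type II over type I keratins and VIM over KRT8 overlap between the groups.

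Genes that work with these filaments were read from 4 lists. Of 22 tested genes of the nuclear lamina and of lamin processing, 9 lay below NC in both OE libraries and 4 above it, against 20.4% and 19.9% of all genes. Their median log2 fold change was -0.31, or -0.18 without OE replicate 1, -0.68 without OE replicate 2 and -0.10 under library-total scaling. Those with the smallest p were LEMD3, an inner nuclear membrane protein that binds lamins, with 34.4 and 39.1 CPM in OE against 91.9 and 90.6 CPM in NC (log2 fold change -1.31, SE 0.30), TOR1AIP1, which activates the ATPase torsinA and binds lamins, with -1.12, SUN2, a link between lamina and cytoskeleton, with -1.10, and NARF, which binds prenylated prelamin A, with 0.81. None of these 4 genes overlapped between the groups. TOR1AIP1 had 73.3 and 81.6 CPM in OE against 149.9 and 187.4 CPM in NC, and NARF had 49.7 and 55.0 CPM in OE against 31.4 and 28.1 CPM in NC.

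Of 16 tested genes on the list of linkers and anchors of filaments, 5 lay below NC in both OE libraries and 0 above it, against 20.4% and 19.9% of all genes. Their median log2 fold change of -0.06 was 0.23 under library-total scaling and 0.07 without OE replicate 2. Plectin (PLEC), a giant cross-linker of filaments, had 368.1 and 157.0 CPM in OE replicates 1 and 2, against 777.6 and 701.8 CPM in NC, a log2 fold change of -1.49 (SE 0.59). Epiplakin (EPPK1), which binds keratins, had -0.76, while TCHH, which binds keratins in hair roots, and the scaffold HOMER3 had 1.71 and 0.75 with overlapping groups. HOMER3 is named because it was on the list, and whether it links filaments was not examined. PLEC and EPPK1 were lower in OE replicate 2 than in OE replicate 1, whereas KRT8, KRT18 and KRT19 were higher in OE replicate 2.

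Of the 31 other keratins listed, 10 were tested, of which 1 lay below and 2 above NC in both OE libraries (20.4% and 19.9% over all genes), with a median of 0.44, or 0 without OE replicate 2. KRT10, a keratin of the upper epidermis, had -0.95, KRT80 had 0.56, and KRT81, a hair keratin, had 1.35 at levels of 0.678 to 1.33 CPM in OE and 0.351 to 0.412 CPM in NC. KRT13 had 14.5 and 47.9 CPM in OE replicates 1 and 2, against 19.8 and 17.0 CPM in NC, and overlapped. Of 8 tested genes of other filament classes, 0 lay below NC in both OE libraries and 2 above it (BFSP1 with 0.54 and IFFO2 with 0.26), against the same shares, with a median of 0.27, or -0.06 without OE replicate 1. PRPH, the type III filament of peripheral neurons, had 13.5 and 2.48 CPM in OE against 4.94 and 2.87 CPM in NC, and DES, the filament of muscle, had -0.55 at 1.14 and 0.723 CPM in OE against 1.70 and 0.996 CPM in NC. In these 4 lists 0 genes passed the edgeR test, while the 4 lamina genes named above had an unadjusted p below 0.05, against 5.5% of all genes. The DESeq2 Wald test also called 0 genes of any list.

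**Figure D4:**
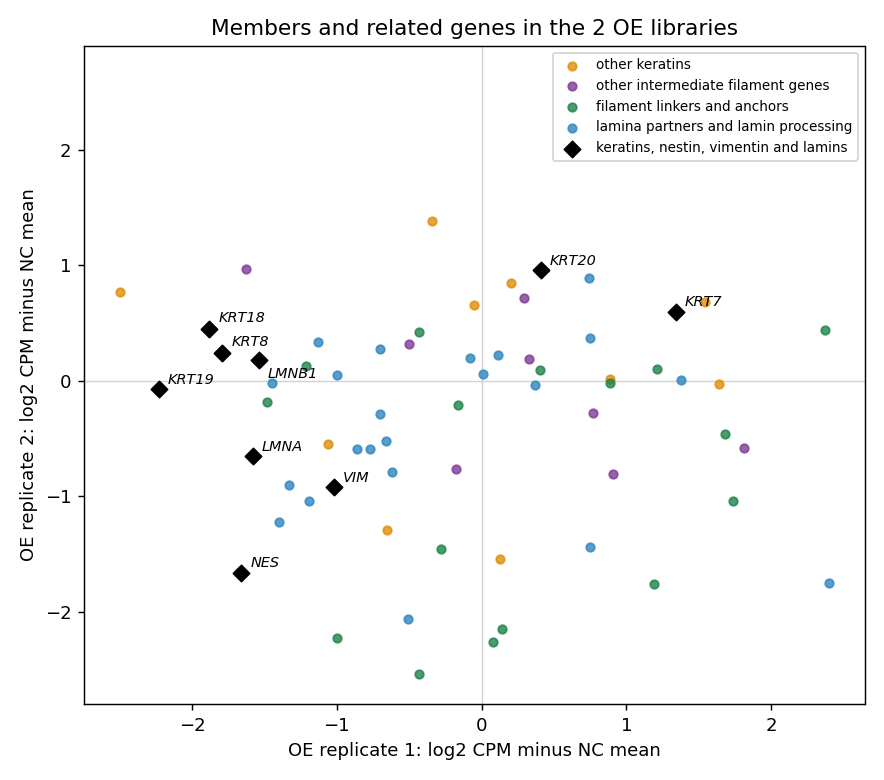
Difference from the NC mean in log2 CPM in OE replicate 1 (x axis) and OE replicate 2 (y axis) for the 9 genes tested (black diamonds) and the tested genes of 4 related lists (coloured points). NES and VIM lie at similar values on both axes, at -1.66 and -1.66 and at -1.02 and -0.92. KRT8, KRT18, KRT19 and LMNB1 lie far to the left, at -0.07 (KRT19) to 0.45 (KRT18) on the y axis.

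Markers of epithelial and mesenchymal identity were set beside these genes. Of 9 tested epithelial genes 3 were lower and 3 higher in both OE libraries, against 20.4% and 19.9% of all genes. The summed level was 1185 and 1972 CPM in OE against 2579 and 2532 CPM in NC over all 12 listed. Of this sum EPCAM made up 554.1 and 1207 CPM in OE and 1451 and 1378 CPM in NC. The median log2 fold change of the 9 tested epithelial genes went the other way, at 0.59. It was 0.04 without OE replicate 1, 0.85 without OE replicate 2 and 0.99 under library-total scaling. E-cadherin (CDH1) had 467.1 and 557.7 CPM in OE against 935.0 and 937.4 CPM in NC, whereas the splicing regulator ESRP2 and the transcription factors ELF3 and EHF had log2 fold changes of 0.69, 0.59 and 1.57. Of 10 tested mesenchymal genes 4 lay below NC in both OE libraries and 0 above it, against the same 20.4% and 19.9%. Of these genes the integrin ITGA5 had -0.58 and the protease MMP14 -0.84, while the repressor ZEB1 had 13.4 and 3.07 CPM in OE against 3.50 and 4.86 CPM in NC. SNAI2, TWIST1, TWIST2, ZEB2 and MMP9 had no footprint in any library. The summed mesenchymal level was 2297 and 7260 CPM in OE against 7305 and 7532 CPM in NC, of which S100A4 made up 1399 and 5898 CPM in OE and 5070 and 4753 CPM in NC. The median log2 fold change of the 10 tested mesenchymal genes, -0.27, was 0.02 under library-total scaling.

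Colonocyte genes were present in part. Of 9 tested, 4 lay below NC in both OE libraries and 1 above it, against 20.4% and 19.9% of all genes, with villin (VIL1) at 32.9 and 40.3 CPM in OE against 74.0 and 82.2 CPM in NC, the phosphatase ALPI at -0.81, VILL at -0.55 and the transcription factor CDX2 at 0.54. FABP1, SLC26A3, CA1, GUCA2B, MS4A12 and PHGR1, markers of mature colonocytes, had no footprint in any library. Other genes of this list had footprints, and some had too few to be tested. LGALS4 had 117.1 and 256.7 CPM in OE against 276.2 and 253.9 CPM in NC. CA2 had 42.9 and 78.1 CPM in OE against 48.2 and 48.2 CPM in NC, and both genes overlapped between the groups. Of 6 tested neural and progenitor genes 1 was lower in both OE libraries (NOTCH1, -0.69) and 1 higher (PAX6, 0.57, below 1 CPM in every library), near those shares. MSI2 had 0.47 and HES1 0.43 with overlapping groups. SOX2, SOX1, PROM1, FABP7, DCX and NEUROD1 had no footprint in any library, and the list summed to 346.9 and 1148 CPM in OE against 895.4 and 846.6 CPM in NC, of which the tubulin TUBB3 made up 152.6 and 992.7 CPM in OE and 722.2 and 650.9 CPM in NC.

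Apart from CD68 and EGFL7, markers of other cell types were low, and some were lower in OE, as NES and VIM were. In NC replicates 1 and 2, EGFL7 had 64.5 and 42.6 CPM and CD68 70.6 and 75.5 CPM, near or above NES with 42.5 and 49.9 CPM. The 13 fibroblast markers summed to 12.8 and 6.78 CPM in OE against 17.8 and 17.2 CPM in NC. Of these, 4 were tested and 3 were lower in both OE libraries, against 20.4% of all genes: PDGFRB with a log2 fold change of -1.56, COL1A1 with -0.80 and ACTA2 with -0.75. COL1A1 had -1.78 without OE replicate 1 (adjusted p = 0.00186, edgeR) and -0.23 without OE replicate 2 (adjusted p = 0.634), in a range of 0.759 to 1 over the fits with all 4 libraries. COL6A3 overlapped, and FAP, THY1 and POSTN had no footprint in any library. The 14 blood and immune markers summed to 44.1 and 34.5 CPM in OE against 84.3 and 87.7 CPM in NC, of which CD68 made up 40.8 and 28.7 CPM in OE and 70.6 and 75.5 CPM in NC. CD14 had -1.95, LYZ had 0.666 and 1.90 CPM in OE against 1.80 and 3.11 CPM in NC and overlapped, and CD3E, CD3D, CD2, MS4A1 and FCGR3A had no footprint in any library. The 8 endothelial markers summed to 27.2 and 30.9 CPM in OE against 64.9 and 43.1 CPM in NC, nearly all from EGFL7, with CDH5, KDR, TEK and ERG at no footprint. The part of such cells in the values of NES and VIM was not tested.

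The genes whose profile was most like that of KRT8 and of NES were sought among 8970 genes with a mean of at least 10 CPM. Likeness was the Euclidean distance over the 4 libraries between log2 CPM values centred on the NC mean. For KRT8 these were PSMA3, a proteasome subunit, at a distance of 0.044, S100A4, a calcium-binding protein, at 0.049, and ATP5F1A, a subunit of ATP synthase, at 0.050. PSMA3 had 99.8 and 426.9 CPM in OE replicates 1 and 2, against 357.9 and 351.8 CPM in NC. For NES they were SLC2A4, a glucose transporter, at 0.127, TM4SF1, a membrane protein, at 0.158, and the claudin CLDN4 at 0.188. TM4SF1 had 153.2 and 145.1 CPM in OE, against 476.9 and 488.8 CPM in NC, and SLC2A4 had 5.61 and 5.74 CPM in OE, against 17.2 and 21.4 CPM in NC.

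NES, VIM and LMNA are the 3 genes that were lower in both OE libraries by more than the spread of NC, and the 250 bases before their gene start are shown for that reason. The sequences are RefSeq's on GRCh38.p14, while the submitters' processing notes name hg18 for the counts. Only the first start listed for each gene was used. Other starts of the same gene were not read, so the start used in these cells may be a different one. Capitals mark the GC box GGGCGG, bound by Sp1, and the box CCAAT, each on either strand. The TATA box TATAAA and the AP-1 site TGANTCA were also searched and had 0 matches in these 3 sequences.
NES (chr1:156677408-156677657, minus strand): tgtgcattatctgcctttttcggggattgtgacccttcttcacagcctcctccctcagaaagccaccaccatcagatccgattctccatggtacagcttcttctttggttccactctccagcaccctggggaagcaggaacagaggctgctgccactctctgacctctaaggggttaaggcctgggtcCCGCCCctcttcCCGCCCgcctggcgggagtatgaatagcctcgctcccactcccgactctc
VIM (chr10:17227991-17228240, plus strand): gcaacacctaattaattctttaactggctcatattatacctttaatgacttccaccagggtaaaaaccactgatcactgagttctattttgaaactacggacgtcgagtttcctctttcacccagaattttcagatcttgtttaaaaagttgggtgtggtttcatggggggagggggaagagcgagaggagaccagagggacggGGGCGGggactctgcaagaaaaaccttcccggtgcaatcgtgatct
LMNA (chr1:156082323-156082572, plus strand): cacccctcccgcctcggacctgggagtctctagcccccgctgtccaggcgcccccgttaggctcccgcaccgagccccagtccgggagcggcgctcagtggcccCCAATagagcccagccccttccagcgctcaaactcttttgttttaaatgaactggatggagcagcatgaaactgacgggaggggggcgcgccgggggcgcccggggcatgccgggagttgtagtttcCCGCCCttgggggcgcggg
NES held 2 GC boxes, at 62 and 50 bases before the start, VIM held 1 at 46 bases and LMNA held 1 at 19 bases with a CCAAT box at 146 bases. Of 35116 RefSeq promoters of the same length, 42.6% held a GC box, 32.0% a CCAAT box, 10.7% a TATA box and 6.57% an AP-1 site. These matches are descriptions of the letters and were not measured as sites in these cells.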

How the data were processed

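The authors deposited 1 table per library holding estimated counts of Ensembl genes, per the file headers. In each library, between 13.8% and 14.7% of the values held a fraction, so they were handled like RSEM output (estimated counts) and rounded. Per the submitters' processing notes the tools were RSEM, StringTie, HISAT2, Bowtie2 and fastp, with hg18; versions, order, annotation, strand and multi-read settings were not given in the sources used here. Groups and replicate numbers came from the titles. Replicates differed by a chi-square of 330 (OE) and 13 (NC) per degree of freedom, so no library was repeated. The labels state independent experiments but not separate cultures, and p-values measure the spread between these libraries.

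In R 4.3.3 with edgeR 4.0.16, filterByExpr (minimum count 10, total 15, proportion 0.7) left 12560 genes. TMM factors were 1.36 and 0.907 for OE and 0.889 and 0.913 for NC. The contrast of OE over NC was tested with edgeR's quasi-likelihood test (p adjusted over all genes after Benjamini-Hochberg, BH); an SE is the fold change over the square root of F. CPM used TMM-scaled totals, and log2 CPM a prior count of 2. Intervals are exact Poisson and cover counting error only. 3 counts, the limit that a count of 0 allows, were 0.285 and 0.136 CPM in OE and 0.154 and 0.176 CPM in NC. On simulated counts over 12382 genes, 42% of 4-fold and 100% of 16-fold changes were recovered, and 15 unchanged genes were called. The simulation used the same dispersion of a gene in both groups and left out the level-dependent shift of OE replicate 1. These shares therefore cannot be carried over to the real libraries.

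The genes and the 11 lists were chosen with earlier results of these data known. Named from each list were up to 4 tested genes with the smallest p; some list genes are not reported here. Alternatives were the DESeq2 1.42.0 Wald test, RLE and library-total scaling, no filter, each library left out, the replicate block and counts summed by symbol. GFAP, S100A4, TUBB3, EPCAM, LGALS4, CA2 and the markers without a footprint were named after their values were seen.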

Additional observations from a re-analysis of the deposited data

How the results depend on the processing

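No direction of the 9 tested genes changed under the DESeq2 Wald test, RLE scaling, library totals, no filter, the replicate block or counts summed by symbol, and 0 of them passed in any of these fits. Over all genes, 25 passed with the DESeq2 Wald test and 24 with the replicate block, against 0 by edgeR's quasi-likelihood test (691 at an unadjusted p below 0.05). The labels state no pairing, so the numbers were not taken as pairs. Deviations of same-numbered libraries had a correlation of -0.0974 over genes. This value cannot decide whether libraries were paired, since the OE deviation carries the level-dependent shift of OE replicate 1. Leaving out each library in turn gave 7 to 7970 genes called, 0 to 8 of the genes described and 0 to 61 list genes; the high counts come from the fits without an OE library, 4329 without OE replicate 1 and 7970 without OE replicate 2, which rest on the spread of the NC pair. The fit without OE replicate 1 tested 12711 genes and the fit without OE replicate 2 13079 genes. Since so large a part of all genes was called there, calls of genes described or listed are not read as results about them. Without OE replicate 1 the log2 fold changes were 0.46 for KRT18, -1.67 for NES, -0.92 for VIM and -0.65 for LMNA. With a library left out, 4 to 7 of the 9 or 10 genes tested had every remaining OE library below every remaining NC library. Those above numbered 1 to 5, and list genes 38 to 52 below and 19 to 39 above. The largest of these counts come from fits with a single OE library, where such an order is easier to reach. The share over all genes was not computed for these fits. With library totals 2 genes described and 20 list genes were higher, against 1 and 13 in the main fit. Those lower numbered 4 and 22, against 4 and 33. The share over all genes was not computed for this fit either, and its median over all genes was 0.40 in place of 0.09. Without OE replicate 1, KRT8 turned to 0.24, KRT18 to 0.46, LMNB1 to 0.18, PRPH to -0.65, ZEB1 to -0.44 and HES1 to -0.03, against -1.83, -1.92, -1.58, 1.74, 1.64 and 0.75 without OE replicate 2. Without OE replicate 2, KRT13 turned to -0.39 and COL6A3 to 0.30, against 1.38 and -4.13 without OE replicate 1. The 6 within-library log2 ratio differences were the same to 2 decimals with unrounded counts and with counts summed by symbol. Without OE replicate 1 and without OE replicate 2, VIM over KRT8 was -1.16 and 0.77, LMNA over LMNB1 -0.83 and -0.05, KRT8 over KRT18 -0.21 and 0.08, type II over type I keratins -0.04 and 0.21, while KRT18 over KRT19 (0.35 to 0.52) and NES over VIM (-0.90 to -0.49) kept their sign without any library. Beyond the leave-one-out fits, whose single OE library is assumed to vary like NC, the cause of these changes was not tested. Depth limits KRT20 and KRT23, with at most 32 footprints in a library.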

Other observations

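GFAP, the filament of astrocytes, which no rule above named, had 105.0 and 634.7 CPM in OE replicates 1 and 2, against 361.3 and 291.2 CPM in NC, so that OE replicate 1 was the lowest library and OE replicate 2 the highest. Strand settings were not given in the sources used here, and reads of an overlapping gene cannot be told apart.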
